A study of Mus musculus with 10 samples.

Results

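The transcripts that make, move and break down the monoamines were examined in mouse brain at 1 and 8 weeks of age. The list held 9 genes, Th, Ddc, Dbh, Tph2, Slc6a3, Slc6a4, Slc18a2, Maoa and Maob, and its members were the probe sets whose array annotation symbol is one of these. A probe set is a group of short probes that reads 1 transcript. Of 22626 probe sets on the array, which carry 12393 genes named by a single symbol, 6 were members, 1 each for Th, Ddc, Dbh, Slc6a3, Slc6a4 and Maoa. Tph2, Slc18a2 and Maob were carried as a symbol by no probe set used here and were not analysed here. The brains came from C57BL/6 mice, an inbred laboratory strain, and the labels name no treatment, mutation or transgene in any group. Each RNA sample was hybridised to an Affymetrix MOE430A array. At 1 week there were 3 arrays labelled female and 3 labelled male, and at 8 weeks 2 of each. The labels number the brains without stating that they were separate animals, so p-values measure the spread between these samples, which may be technical.

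Dopamine and noradrenaline are made from tyrosine, and serotonin from tryptophan. Th, tyrosine hydroxylase, performs the rate-limiting step of catecholamine synthesis, Ddc, the aromatic amino acid decarboxylase, then forms dopamine or serotonin, and Dbh, dopamine beta-hydroxylase, turns dopamine into noradrenaline inside vesicles. The plasma membrane transporters encoded by Slc6a3 and Slc6a4 take dopamine and serotonin back into the neurons that released them, and Maoa, an X-linked gene, encodes a mitochondrial oxidase that breaks all these amines down. In brain most of the cells that make monoamines lie in small groups in midbrain, hypothalamus, olfactory bulb and hindbrain, so their transcripts are a small share of RNA from the brain as a whole. In such bulk samples fewer cells of a type and less RNA per cell cannot be told apart.

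Of the 5 members bright enough to be tested, Th was called higher and Maoa lower at 8 weeks relative to the other probe sets, and the 250 bases before the start of those genes are shown here for that reason. The sequences are RefSeq windows of build GRCm38.p6, read 5′ to 3′ on the strand of the gene, for Th at chr7:142899996-142900245 on the minus strand and for Maoa at chrX:16619448-16619697 on the plus strand. Capitals mark matches on either strand to the cAMP response element TGACGTCA and the GC box GGGCGG.
Th: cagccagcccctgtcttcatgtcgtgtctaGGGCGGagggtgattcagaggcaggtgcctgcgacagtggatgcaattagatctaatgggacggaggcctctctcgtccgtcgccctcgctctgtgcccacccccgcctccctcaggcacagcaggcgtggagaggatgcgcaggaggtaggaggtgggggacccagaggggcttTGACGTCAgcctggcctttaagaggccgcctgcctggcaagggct
Maoa: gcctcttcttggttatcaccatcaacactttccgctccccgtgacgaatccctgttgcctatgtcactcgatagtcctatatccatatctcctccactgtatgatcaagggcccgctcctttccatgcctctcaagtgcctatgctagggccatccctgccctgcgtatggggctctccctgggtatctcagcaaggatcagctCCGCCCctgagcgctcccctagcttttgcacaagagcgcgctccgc
The window of Th held the cAMP response element, its first base 45 bases before the start, and a GC box 220 bases before it. That of Maoa held a GC box on the opposite strand, 46 bases before the start. Over 32851 RefSeq windows of 250 bases the cAMP response element was in 1.55% and the GC box in 32.7%. Among 9 windows of 8 listed genes the element was in 1, that of Th, and the GC box in 5, those of Th, Maoa, Slc6a3, Slc6a4 and Slc18a2. Another motif, AAAGGTCA, bound by the orphan receptor Nr4a2, was in 1.34% of windows and in 1 of the 9, a window of Ddc. These motifs do not overlap each other as matched here, and a match is a description of letters, not of a bound site.

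The arrays differed in overall brightness and, at 1 week, in their fit to the sex labels. Trimmed mean intensities ran from 138 to 236 at 1 week and from 255 to 318 at 8 weeks, so intensities were quantile-normalized, which gives every array the same distribution. The number of arrays limits the precision. Xist, the RNA of the inactive X chromosome, and the Y-linked Eif2s3y matched the label in 4 of 4 arrays at 8 weeks and opposed it in 4 of 6 at 1 week, and 1 further array at 1 week, replicate 3 labelled female, carried both. Labelled sex was therefore compared at 8 weeks only, and age results are also given without the 4 arrays. Markers of brain were present, with 8 of 8 neuronal and 8 of 8 astrocyte genes tested, among them Snap25 and Glul.

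Most members were dim. As a scale for background, 37 genes characteristic of liver, muscle, testis, kidney, lung and other organs were read on the same arrays. Their 52 probe sets had a median normalized intensity of 28.5, with 90% of them at or below 151 and 76.9% under the cut-off of 73.9 that a probe set had to exceed to be tested. The upper end of that range was not all background, since liver genes stood out in some arrays: Alb, the albumin gene, ran from 70.8 to 3481 and was the 1 probe set above Maoa. The summed list was at 5149 and 7055 in replicate 2 labelled female and replicate 2 labelled male at 1 week and at 7985 in replicate 2 labelled female at 8 weeks, against 1600 to 2931 in the other 7 arrays. Without the 9 liver genes, a choice made after these values were seen, 43 probe sets had a median of 16.9 and 90% of them lay at or below 93.9. Slc6a4 lay at background. Its mean over the arrays was above 24 of the 52 and its 10 arrays all read below 73.9. Th, Ddc, Dbh and Slc6a3 lay near the top of the background range, above 45, 46, 44 and 44 of the 52, and at percentiles 55.2, 56.6, 54.5 and 48.6 of all probe sets. Maoa was clear of it, above 51 of the 52 and at percentile 83.2. Of the 43 probe sets of organs other than liver, 41 lay below Th, 42 below Ddc, 40 below Dbh, 40 below Slc6a3, 23 below Slc6a4 and 43 below Maoa.

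**Figure D1:**
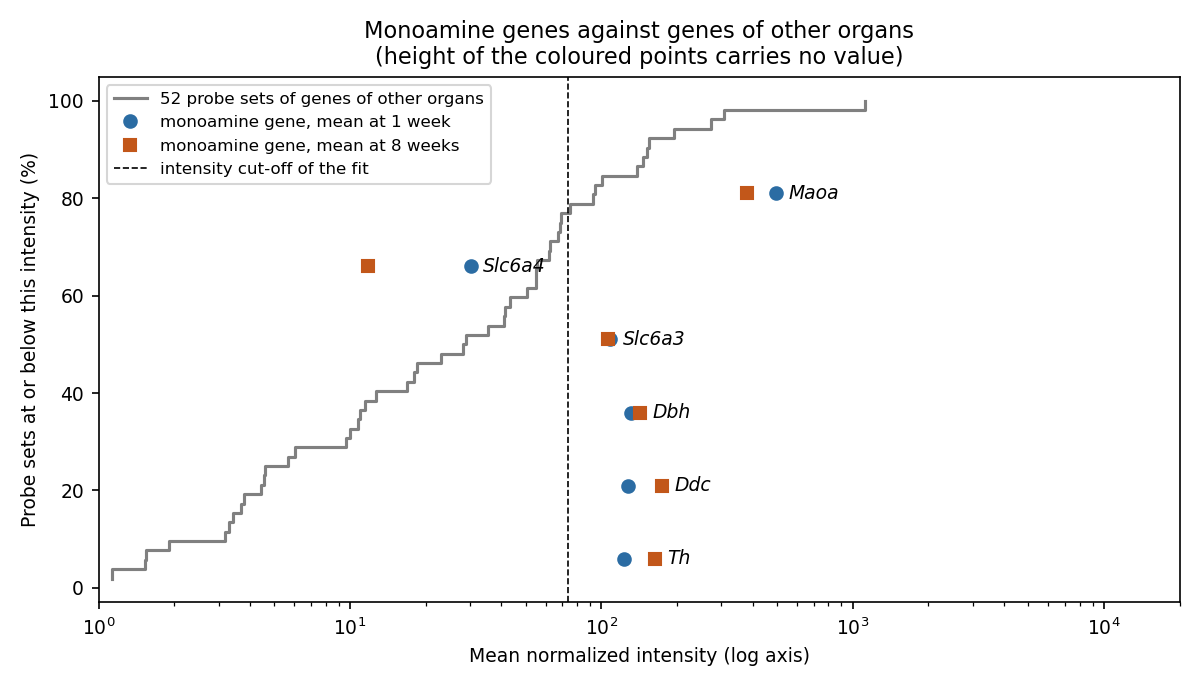
Mean normalized intensity (log axis) of each of the 6 monoamine genes at 1 week (circles) and 8 weeks (squares), against the cumulative share of 52 probe sets of genes of other organs (grey line), with the cut-off of 73.9 dashed. Slc6a4 falls inside the grey distribution, Th, Ddc, Dbh and Slc6a3 fall in its upper part, and Maoa lies beyond all but 1 of the 52, a probe set of the liver gene Alb.

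The first comparison asked how these transcripts differed between 1 and 8 weeks. Changes are log2 at 8 weeks minus 1 week ± SE, from a linear model fitted with limma to 13576 probe sets, with p-values adjusted by the Benjamini-Hochberg method over all of them and a threshold of 0.05. Of the 5 members tested, 1 rose, 1 fell and 3 did not pass. Among all probe sets tested 46.0% were called, 22.0% higher and 24.0% lower at 8 weeks, so 2 of 5 is close to the background. The median change of the 5 was 0.11, beside -0.015 over all probe sets.

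Th, whose product sets the rate of catecholamine synthesis, read 98.7 at its lowest, 119.5 at the median and 164.9 at its highest at 1 week. At 8 weeks it read 182.7 and 188.3 in the arrays labelled female and 156.6 and 125.2 in those labelled male. The ages overlapped, with 2 of 4 arrays at 8 weeks above every array at 1 week and 4 of 4 above the median at 1 week. Among all probe sets tested, 17.1% had every array at 8 weeks above every array at 1 week. The mean went from 123 ± 23.7 (SD, n = 6) to 163 ± 28.9 (SD, n = 4), and the change of 0.35 ± 0.12 was just past the threshold (limma adjusted p = 0.0418, 95% interval 0.072 to 0.62). The rise was kept on the scale of the deposited intensities (0.80 ± 0.16) and on that of bacterial spike-in controls (0.53 ± 0.16). The median of all probe sets also rose on these scales, by 0.47 and 0.19. Relative to that median Th was higher by 0.33 and 0.34, a measure in which the scale of an array largely cancels. It did not pass in 7 of the 10 fits that each left out 1 array, where the change ran from 0.28 to 0.43 and the adjusted p from 0.00754 to 0.146. Those arrays were replicates 1 and 2 labelled female and replicates 1 and 2 labelled male at 1 week, and replicates 1 and 2 labelled female and replicate 1 labelled male at 8 weeks. Without the 4 arrays at 1 week whose sex transcripts opposed their label the change was 0.29 ± 0.21 (limma adjusted p = 0.338), and it was 0.61 ± 0.21 (limma adjusted p = 0.0729) with 1 array of 1 week left. Over all alternatives the adjusted p of Th ran from 3.72e-04 to 0.338.

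Ddc, whose product completes dopamine and serotonin synthesis, varied widely at both ages. At 1 week it read 81.7 at its lowest, 123 at the median and 189 at its highest, and at 8 weeks 130.5 and 229.8 in the arrays labelled female and 226.9 and 109.1 in those labelled male. The ages overlapped, and the mean went from 128 ± 39.8 to 174 ± 63.3. The change of 0.37 ± 0.24 did not pass (limma adjusted p = 0.242), with a 95% interval of -0.17 to 0.90. Leaving out 1 array moved it from 0.14 to 0.59. It passed on the deposited scale (0.81 ± 0.22, limma adjusted p = 0.00356) and on the spike-in scale (0.56 ± 0.21, limma adjusted p = 0.0443), scales on which the median of all probe sets moved by 0.47 and 0.19. Relative to that median Ddc was higher by 0.38 after quantile normalization, 0.34 as deposited and 0.36 with the spike-ins. The scale of an array largely cancels in these values, so their likeness is no separate support.

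Dbh, the enzyme gene of noradrenergic neurons, read 102.2 at its lowest, 123.5 at the median and 162.9 at its highest at 1 week. At 8 weeks it read 115.4 and 134 in the arrays labelled female and 181.3 and 140.6 in those labelled male. The ages overlapped, with 1 of 4 arrays at 8 weeks above all arrays at 1 week. The mean was 131 ± 25.7 and 143 ± 27.75, a change of 0.11 ± 0.13 that did not pass (limma adjusted p = 0.527, 95% interval -0.18 to 0.40). Leaving out 1 array moved it from 0.03 to 0.19. On the deposited scale it passed (0.56 ± 0.16, limma adjusted p = 0.00541), but relative to the median of all probe sets it was at 0.093 there, beside 0.12 after quantile normalization.

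Slc6a3, the dopamine transporter gene, was 109 ± 26.1 at 1 week and 106 ± 27.9 at 8 weeks. At 1 week it ran from 76.5 through a median of 110.7 to 144.8, and at 8 weeks it read 86 and 129.7 in the arrays labelled female and 130 and 77.8 in those labelled male. All 4 arrays at 8 weeks fell within the range at 1 week. The change was -0.032 ± 0.18 (limma adjusted p = 0.901), with a 95% interval of -0.44 to 0.37, and its sign turned on the deposited scale (0.39) and on the spike-in scale (0.14). Relative to the median of all probe sets, where the scale of an array largely cancels, it was at -0.017, -0.081 and -0.054 on the 3 scales.

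Slc6a4, the serotonin transporter gene, was too dim to be tested. At 1 week it ran from 3.30 through a median of 15.7 to 72.6, the 2 highest arrays being replicate 3 labelled male at 72.6 and replicate 3 labelled female at 65.9, and the next reading was 20.2. At 8 weeks it read 4.33 and 26.7 in the arrays labelled female and 9.16 and 6.97 in those labelled male. The ages overlapped, all 10 values lay below the cut-off, and no fold is drawn from them.

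Maoa, the amine oxidase gene, gave the clearest difference of the group. At 1 week it ran from 463.8 through a median of 487.8 to 563.1, and at 8 weeks it read 343.2 and 374.2 in the arrays labelled female and 375.4 and 421.1 in those labelled male. The ages did not overlap, as was the case for 35.4% of all probe sets tested. The mean went from 495 ± 36.9 (SD, n = 6) to 378.5 ± 32.1 (SD, n = 4), and Maoa fell by 0.37 on the log2 scale (SE 0.081, limma adjusted p = 0.00423). The fall passed in 10 of 10 fits that left out 1 array (-0.41 to -0.33) and without the 4 arrays whose sex transcripts opposed their label (-0.47 ± 0.12, limma adjusted p = 0.0194). It is a fall relative to the other probe sets. As deposited, Maoa ran from 327.3 to 498.5 at 1 week and from 402 to 509.8 at 8 weeks, and its change was 0.16 ± 0.13 (limma adjusted p = 0.283), against a median change over the array of 0.47. Scaled to the spike-in controls it was -0.14 ± 0.13 (limma adjusted p = 0.427) against a median of 0.19. Relative to the median of all probe sets Maoa was at -0.35 after quantile normalization, -0.31 as deposited and -0.33 with the spike-ins. On the same scales Th was at 0.36, 0.33 and 0.34. A factor that scales a whole array largely cancels in this measure, so the likeness of the 3 values is no separate support.

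**Figure D2:**
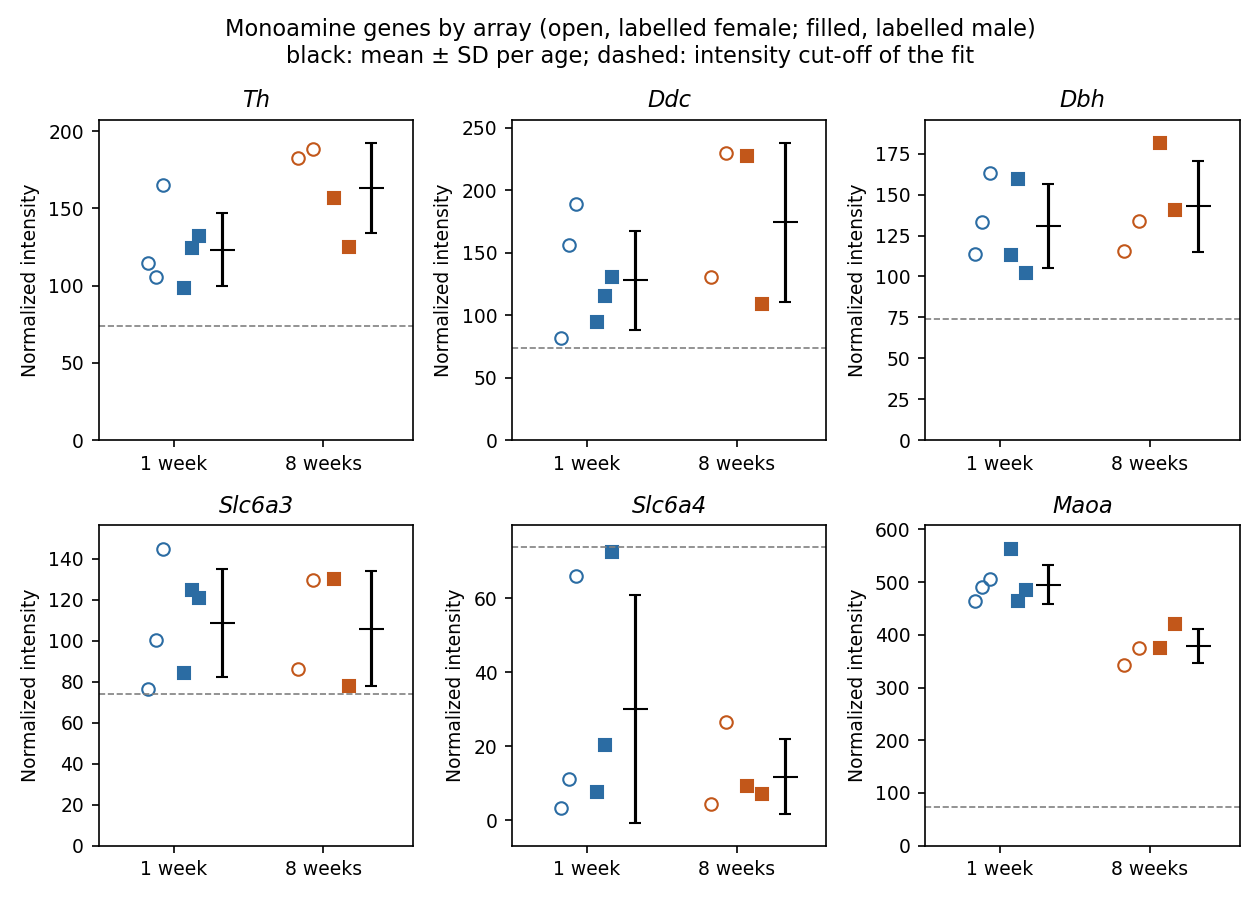
Normalized intensity of the 6 monoamine genes in each of the 10 arrays, open circles labelled female and filled squares labelled male, with mean ± SD per age in black and the cut-off of 73.9 dashed. The 4 arrays at 8 weeks all lie below the 6 at 1 week for Maoa, between 343.2 and 421.1, while the ages overlap for the other 5 genes.

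**Figure D3:**
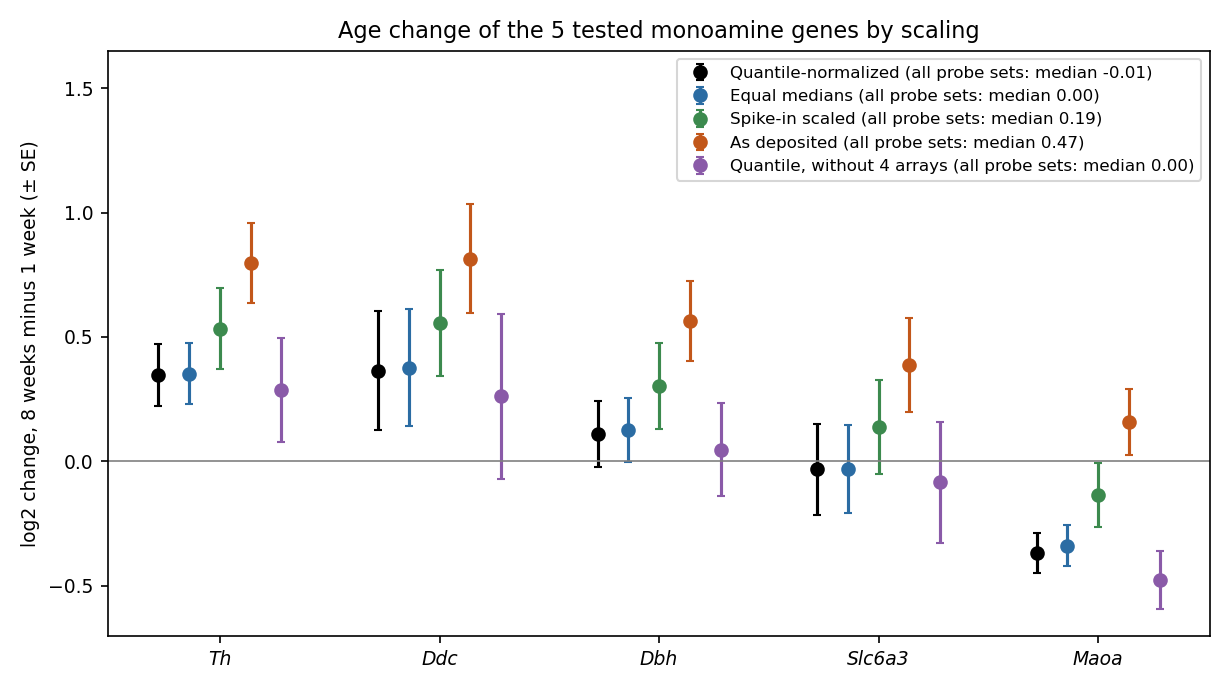
Change in log2 intensity at 8 weeks minus 1 week ± SE for the 5 tested genes under 4 scalings and, after quantile normalization, without the 4 arrays whose sex transcripts opposed their label. Th stays above 0 under each, Maoa turns from -0.37 to 0.16 in the deposited intensities, whose median change over the array was 0.47, and Slc6a3 also changes sign, though not relative to that median.

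Maoa is expressed by several kinds of brain cell, whose marker lists were called at shares near that of all genes for astrocytes and endothelium. Of 8 astrocyte genes, 3 were higher and 1 lower at 8 weeks, with summed intensities of 5320 to 7660 at 1 week and 8760 to 9210 at 8 weeks. Of 8 general neuronal genes, 4 were higher and 2 lower, with sums of 15700 to 17300 and 15900 to 17000 that overlapped. Of 6 endothelial genes, 1 was higher and 2 lower, with sums of 1290 to 1660 at 1 week and 1400 to 1550 at 8 weeks. Genes were called for age in 45.9% of all cases, counting each gene by its brightest probe set, 21.9% higher and 24.0% lower. Of 6 cerebellar genes, 5 were higher and 0 lower, with sums of 1630 to 4620 at 1 week and 4090 to 15800 at 8 weeks, and of 4 pituitary genes tested 2 were higher. The part of these cell types and regions in the changes of Maoa and Th was not tested.

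A within-array difference of log2 values shows whether genes changed unequally, and depends less on the scaling factor of the array. The pseudocount added before log2 was taken keeps that factor from cancelling fully. The differences of Ddc, Dbh and Slc6a3 from Th were compared between ages by a two-sided exact permutation test, with p-values adjusted over the 3, and the smallest p this design allows is 0.00476. Slc6a3 changed by 0.38 less than Th, from a difference of -0.16 ± 0.16 (n = 6) at 1 week to -0.54 ± 0.28 (n = 4) at 8 weeks (exact permutation p = 0.0143, adjusted p = 0.0429). The ranges still overlapped, -0.46 to 0.003 at 1 week and -0.91 to -0.23 at 8 weeks. On the deposited scale the value was -0.41 (exact permutation adjusted p = 0.0286). With the pseudocount of 24 halved to 12 the value was -0.41 and the adjusted p 0.0714 by the same exact test. The exact test passed in 2 of the 10 fits without 1 array, with adjusted p from 0.0238 to 0.143. Of the arrays whose removal ended the call, 5 were at 1 week, all but replicate 1 labelled female, and 3 at 8 weeks, all but replicate 1 labelled male. Without the 4 arrays whose sex transcripts opposed their label it was -0.37, close to the value from all arrays, in a design of 2 against 4 whose smallest exact p, 0.0667, cannot pass. Dbh differed from Th by -0.24 in its change (exact permutation p = 0.262, adjusted p = 0.393) and Ddc by 0.018 (exact permutation p = 0.962, adjusted p = 0.962).

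Within each age Slc6a3 and Ddc were lowest in the same arrays. The 2 arrays with the lowest Slc6a3 at 1 week, replicate 1 labelled female at 76.5 and replicate 1 labelled male at 84.2, also had the lowest Ddc, at 81.7 and 94.8. At 8 weeks replicate 1 labelled female and replicate 2 labelled male were lowest in Slc6a3, at 86 and 77.8, and in Ddc, at 130.5 and 109.1. This pattern was noticed after the values were seen. Slc6a4, which lay at background, was lowest in the same arrays, at 3.30 and 7.73 at 1 week and at 4.33 and 6.97 at 8 weeks. The 2 lowest arrays of Th, Dbh and Maoa were not this set at either age. Cerebellar genes had summed intensities of 1931 and 1632 in those 2 arrays at 1 week and of 3145 to 4620 in the other 4. At 8 weeks they were at 9876 and 15770 in the 2 low arrays and at 9722 and 4090 in the others. Oligodendrocyte genes were at 2102 and 2883 in the low arrays against 4807 to 9991 at 1 week, and at 11640 and 12980 against 14120 and 15540 at 8 weeks. Hindbrain and spinal cord genes, 6 of 8 of them under the cut-off, summed to 409.5 and 455.6 against 452.2 to 853.5 at 1 week and to 479.8 and 732.1 against 604.2 and 682.6 at 8 weeks. Olfactory bulb genes were highest in the low arrays, at 539.5 and 768 against 445.3 to 539.2 at 1 week and at 631.4 and 431.2 against 417.4 and 343.5 at 8 weeks. The pituitary list also varied, with sums of 334 to 2710 at 1 week and 1060 to 13600 at 8 weeks. The part of these other cells and regions in the orders was not tested.

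For each tested member the 3 genes with the most similar pattern over the 10 arrays were found by Pearson correlation of log2 values among 8148 genes. These arrays share the difference between ages, and each r was picked as among the highest of many over 10 arrays. Such picking alone can give high values, so they are descriptions. Closest to Slc6a3 was Chrna6 (r = 0.91), which encodes a nicotinic receptor subunit of midbrain dopamine neurons, ahead of Ddit4 (r = 0.89) and Tmem176a (r = 0.84). Chrna6 read 60 to 114.3 at 1 week and 56.7 to 104.3 at 8 weeks, and did not pass for age (log2 -0.023 ± 0.17, limma adjusted p = 0.924). Its 2 lowest arrays were those of Slc6a3 at 8 weeks but not at 1 week. At 1 week they were replicates 1 and 2 labelled female. Its other probe set lay under the cut-off, at 8.87 to 31.1 at 1 week and 18.3 to 43.4 at 8 weeks. That probe set was highest in replicate 1 labelled female at 8 weeks, an array low in Slc6a3. Closest to Th was Cartpt, a neuropeptide gene of hypothalamus (r = 0.92), which went from 191 to 241, followed by Prpf3 (r = 0.90) and Slc39a9 (r = 0.90). Ddc was closest to Gamt, the creatine synthesis enzyme gene (r = 0.94), Akap2 and Scg2, a granin gene of secretory vesicles (both r = 0.91). Dbh had the weakest neighbours, Siva1 (r = 0.86), Csf1 (r = 0.85) and Smpd2 (r = 0.84). Maoa was closest to Eef2, the translation elongation factor gene (r = 0.99), Ppp2r5d (r = 0.97) and Tmeff1 (r = 0.96), all 3 of them lower at 8 weeks.

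**Figure D4:**
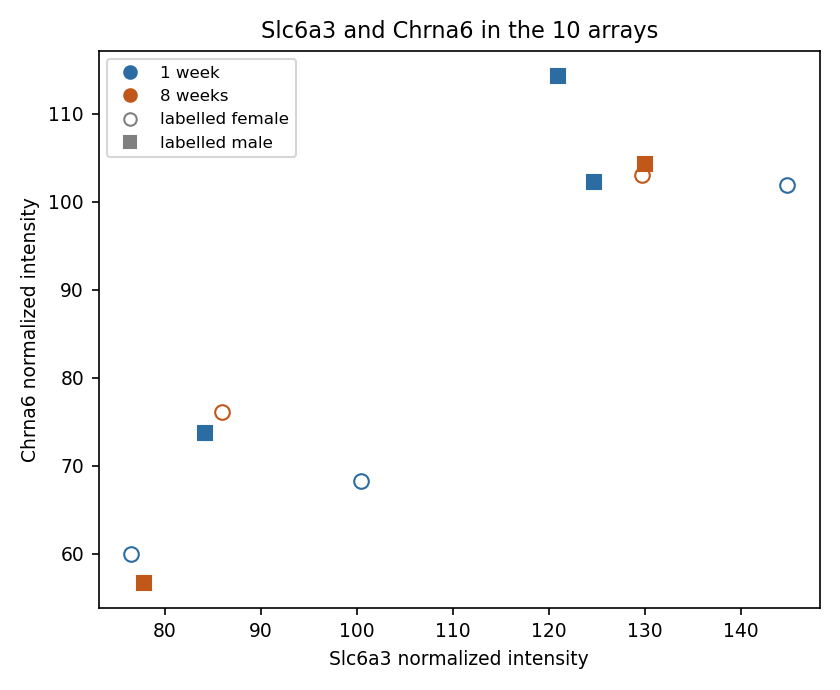
Normalized intensity of Slc6a3 and of the brighter probe set of Chrna6, a nicotinic receptor subunit gene, in the 10 arrays. Points are coloured by age and shaped by labelled sex. Arrays of both ages lie at the low and at the high end, with Slc6a3 from 76.5 to 144.8 and Chrna6 from 56.7 to 114.3.

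The rest of the amine pathway was read from 9 lists of 88 genes, of which 66 had a probe set and 33 were bright enough to be tested. Of these 33, 7 rose and 6 fell, 39.4% called beside 45.9% of all genes, with a median change of 0.14 beside -0.020 for all genes. Several changes were steeper than those of the members.

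Tetrahydrobiopterin is the cofactor that Th and the tryptophan hydroxylases need. Of 5 tested genes of its synthesis and recycling 1 rose and 1 fell. Qdpr, the reductase that regenerates the cofactor, was 1167 ± 150.5 at 1 week and 2601 ± 200.1 at 8 weeks, a change of 1.15 ± 0.095 (limma adjusted p = 9.21e-06), and its other probe set rose as well (1.23 ± 0.084). Its ages did not overlap. Of 4 oligodendrocyte genes tested 3 rose, with sums of 2100 to 9990 at 1 week and 11600 to 15500 at 8 weeks, and the part of these cells in the rise of Qdpr was not tested. Pts, an enzyme of cofactor synthesis, fell by 0.26 ± 0.092 (limma adjusted p = 0.0431), a call lost without normalization (0.20), where its sign turned, on the spike-in scale (-0.066), with equal medians or an intensity trend (both adjusted p = 0.0539), with no filter (0.0672), with the replicate block (-0.23, adjusted p = 0.0723) and without any of 8 of the 10 arrays, where the adjusted p reached 0.159. Those 8 were all arrays but replicate 2 labelled male at 1 week and replicate 1 labelled female at 8 weeks. Gch1, the first enzyme of cofactor synthesis, lay under the cut-off at 48.9 ± 9.52 and 49.2 ± 16.1.

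Other enzymes of amine turnover went both ways, with 2 of 9 tested rising and 3 falling. Aldh1a1, an aldehyde dehydrogenase found in some midbrain dopamine neurons and in other cells, was 127 ± 43.6 at 1 week and 1070.0 ± 188.9 at 8 weeks (2.89 ± 0.23, limma adjusted p = 6.87e-06). Sult1a1, a phenol sulfotransferase, rose from 90.5 ± 25.9 to 197 ± 39.9 (0.96 ± 0.18, limma adjusted p = 0.00149). Adh5 fell from 585 ± 58.2 to 403 ± 35.6 (-0.51 ± 0.082) and the aldehyde reductase gene Akr1a1 from 3492 ± 146.4 to 2850.0 ± 132.2 (-0.29 ± 0.071), with all 4 of its probe sets falling. Comtd1 also fell (-0.24 ± 0.083, limma adjusted p = 0.0374). Of these 3, Adh5 was at 0.027, Akr1a1 at 0.16 and Comtd1 at 0.22 on the deposited scale, and at -0.27, -0.15 and -0.047 on the spike-in scale, where limma called none of them. Without the 4 arrays whose sex transcripts opposed their label Akr1a1 (-0.28, limma adjusted p = 0.0779) and Comtd1 (-0.38, limma adjusted p = 0.058) did not pass. Comtd1 also lost its call with equal medians, no filter, an intensity trend, age alone and the replicate block (-0.21, limma adjusted p = 0.111), and without any of 8 arrays, all but replicate 1 labelled female and replicate 2 labelled male at 1 week, with an adjusted p up to 0.124.

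Slc29a4, a low-affinity plasma membrane monoamine transporter gene, showed the steepest fall among the pathway genes named. It went from 307 ± 65.1 to 103 ± 23.9, 2.97 times higher at 1 week (-1.37 ± 0.17, limma adjusted p = 1.25e-04), and it fell on the deposited scale too (-0.90). It was the 1 gene tested of 4 other transporters on the array. Slc6a2, the noradrenaline transporter gene, lay under the cut-off at 69.5 ± 13.9 and 48.7 ± 5.94.

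After the filter, 1 of 1 dopamine, 1 of 1 adrenergic and 2 of 3 histamine and trace amine receptor genes tested passed. Of the serotonin receptor genes 0 of 5 passed. The 4 receptor genes that passed were higher at 8 weeks, beside 21.9% of all genes called higher. With no filter, Htr4 (-0.61, limma adjusted p = 0.0142) and Adra1b (-0.52, limma adjusted p = 0.012) also passed, both lower at 8 weeks. Hrh3, a presynaptic histamine receptor gene, rose from 127 ± 17.3 to 324 ± 43.0 (1.20 ± 0.11, limma adjusted p = 1.84e-05), and Hrh1 from 80.8 ± 12.7 to 115 ± 17.9 (0.41 ± 0.12, limma adjusted p = 0.0159). Adra2c, an alpha-2 adrenergic receptor gene, rose from 55.4 ± 19.7 to 121 ± 32.05 (0.88 ± 0.12). Its mean at 1 week lay under the cut-off, so it passed the filter through the age at which it is high. Drd2, the dopamine receptor gene of striatal and midbrain neurons, rose from 132 ± 19.7 to 192 ± 30.7 (0.46 ± 0.13, limma adjusted p = 0.0141). Without the 4 arrays whose sex transcripts opposed their label Drd2 (0.45, adjusted p = 0.0626), Hrh1 (0.45, adjusted p = 0.0675) and Adra2c (0.83, adjusted p = 0.0585) did not pass with limma. Drd2 also lost its call without replicate 1 labelled female or replicate 2 labelled male at 8 weeks, and Hrh1 without replicate 2 labelled female or replicate 1 labelled male at 8 weeks, with adjusted p up to 0.0671 and 0.072 over these limma fits. Of 5 serotonin receptor genes tested, 0 passed with limma, among them Htr1a (0.24 ± 0.12, limma adjusted p = 0.136) and Htr2c (0.15 ± 0.082, limma adjusted p = 0.161), and 8 others lay under the cut-off.

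Transcription factors that specify monoamine neurons were mostly dim, with 5 of 14 on the array tested. Nkx2-2, which acts in serotonergic progenitors and in oligodendrocyte precursors, fell from 255 ± 63.4 to 141 ± 11.9 (-0.73 ± 0.15, limma adjusted p = 0.00234), a call lost on the deposited scale (-0.25). Nr4a2, which dopamine neurons need, was 184.5 ± 50.2 and 165.5 ± 30.65 and did not pass (-0.12 ± 0.16, limma adjusted p = 0.59). With the replicate block it passed as lower (-0.31 ± 0.079, limma adjusted p = 0.0142), and on the deposited scale as higher (0.36 ± 0.15, limma adjusted p = 0.0392). Of 4 tested genes co-expressed with monoamine markers, Aldh1a1 was called and the other 3, Chrna6 among them, were not.

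**Figure D5:**
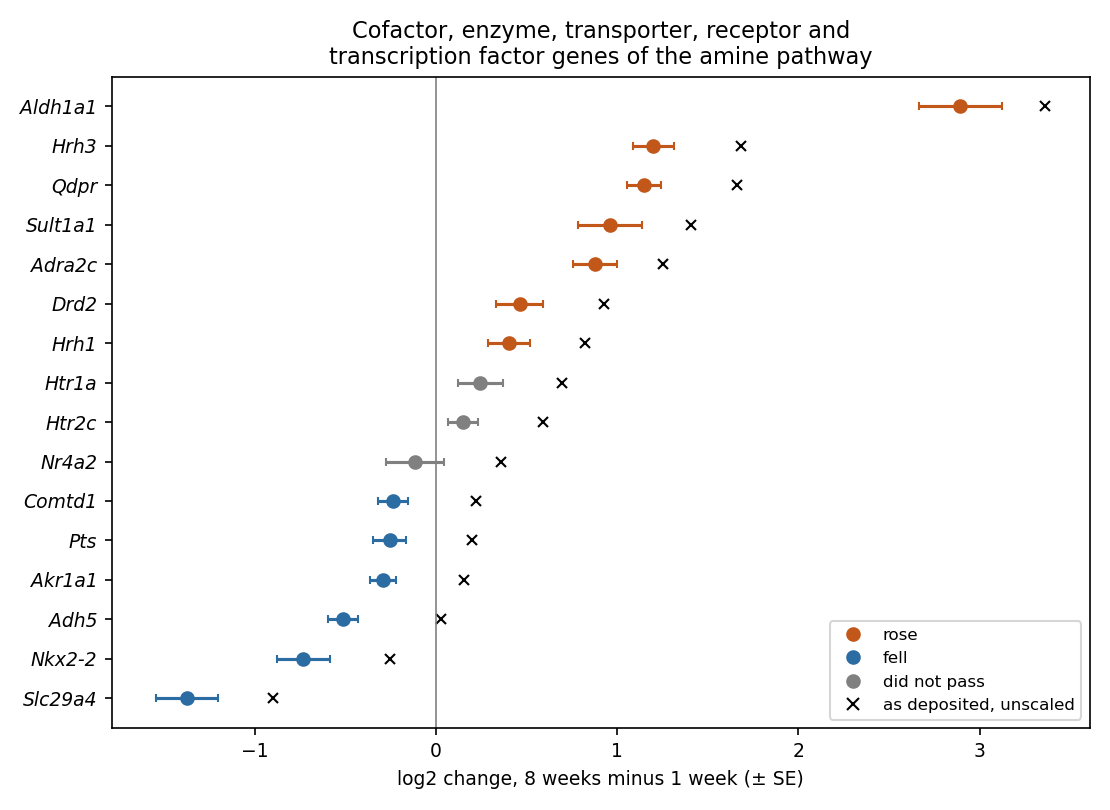
Change in log2 intensity at 8 weeks minus 1 week ± SE for 16 tested cofactor, enzyme, transporter, receptor and transcription factor genes of the amine pathway, coloured by whether they rose, fell or did not pass, with the value on the deposited scale as a cross. Aldh1a1, Hrh3 and Qdpr show the largest rises and Slc29a4 the largest fall, and crosses lie to the right of the points.

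The second comparison set the arrays labelled male against those labelled female at 8 weeks, 2 against 2. Maoa is X-linked. With limma 0 of 13576 probe sets passed (0%), 345 were at an unadjusted p under 0.05, and a fit of the 4 arrays alone called 2, both of them probe sets of Xist. Xist itself did not pass in the fit of all arrays (log2 -4.37, limma adjusted p = 1), so a call of 0 there says little of the members. Labels did not overlap for 29.0% of all probe sets tested, and for 3 of the 5 members, Th, Maoa and Dbh. Th was at 185.5 on average in arrays labelled female and 140.9 in those labelled male (-0.35 ± 0.19, 95% interval -0.78 to 0.074). Maoa was at 358.7 and 398.2 (0.14 ± 0.13, 95% interval -0.14 to 0.42), and on the deposited scale its sign turned (-0.065). Dbh was at 124.7 and 160.9 (0.31 ± 0.20), Ddc at 180.1 and 168 (-0.12 ± 0.37) and Slc6a3 at 107.8 and 103.9 (-0.054 ± 0.28), and for these 5 the limma adjusted p was 1.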

How the data were processed

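Brain RNA of C57BL/6 mice was read on 10 Affymetrix MOE430A arrays. The authors deposited a linear intensity for every probe set. How the probes were summarised was not given in the sources used here. Of 22690 probe sets, 64 controls were left out. Symbols came from the platform annotation, 1 for 20380 probe sets, several for 691 and none for 1555. Intensities were quantile-normalized, a pseudocount of 24 (the 20th percentile) was added and log2 taken, so fold changes of dim genes are understated. Probe sets with a mean under the 40th percentile, an intensity of 73.9, were left out. Models with 1 coefficient per age and labelled sex were fitted with limma 3.58.1 (R 4.3.3) and tested on simulated data. Tests were two-sided. All member probe sets, up to 4 rising and 4 falling genes per list, a fixed set of genes, some of them not reported here, and the 3 nearest genes per member were named. Genes were represented by their brightest probe set. Members, lists and tests were chosen with earlier results of these data known. Alternatives were other scalings, pseudocounts and filters, leaving out arrays singly, a block for replicate number, a trended prior variance and a model of age alone, also without doubted arrays. Spike-in scaling, the 8-week arrays alone and the background without liver genes were added after seeing the data.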

Additional observations from a re-analysis of the deposited data

How the results depend on the processing

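Without normalization 8673 probe sets were higher and 629 lower at 8 weeks, against 2993 and 3253, pathway genes split 23 to 1, and changes were 0.81 for Ddc, 0.56 for Dbh, 0.39 for Slc6a3 and 0.16 for Maoa, with 1 probe set called for sex and Maoa at -0.065 for sex. Scaled to 18 spike-in probe sets, chosen after seeing the data, 4156 were higher and 1220 lower, pathway genes split 13 to 2, and changes were 0.56 for Ddc, 0.14 for Slc6a3 and -0.14 for Maoa, with 1 probe set called for sex. The 8-week arrays alone called 2 for sex. With no filter Th was at 0.35 (limma adjusted p = 0.0712), where more probe sets were tested, and at the 60th percentile 3 pathway genes rose, of 17 tested, and Maoa was the 1 member still tested. With the pseudocount at 12 the difference of Slc6a3 from Th was -0.41. Without the 4 arrays whose sex transcripts opposed their label 2069 were higher and 1973 lower, Th was at 0.29, and the difference from Th was -0.37 for Slc6a3 and -0.027 for Ddc, where the exact test cannot pass. Without the array carrying both transcripts as well, which leaves 1 array at 1 week, 1975 were higher and 1747 lower, 3 pathway genes fell, Th was at 0.61 and Slc6a3 at 0.24. Those 2 settings test fewer arrays, and the cause of the other shifts was not tested. Leaving out 1 array at a time gave 0.28 to 0.43 for Th, -0.18 to 0.12 for Slc6a3, 0 to 2 probe sets called for sex, -0.57 to 0.34 for Ddc and -0.35 to 0.24 for Slc6a3 by sex, and differences from Th of -0.13 to 0.17 for Ddc and -0.48 to -0.25 for Slc6a3. The replicate block turned Slc6a3 to 0.099 (limma adjusted p = 0.691), with 2847 higher and 3054 lower, and changed no other call of a member. Same-numbered arrays of different groups correlated from -0.03 to 0.19 in their deviations from group means, 5 of 13 pairs above 0.1. Differently numbered arrays correlated from -0.18 to 0.18, with 1 of 24 pairs above 0.1. The main fit has no term for replicate number, and what same-numbered arrays share was not tested. Medians as scale, double the pseudocount, the intensity trend and age alone kept the calls of all 5 members. Signal near background limits Slc6a4 most, then Th, Ddc, Dbh and Slc6a3.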
